A study of Mus musculus with 9 samples.

Results

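Hprt and 8 further enzymes of purine salvage and synthesis (Aprt, Ppat, Gart, Paics, Adsl, Atic, Impdh1 and Impdh2) were followed in total RNA of the newborn mouse dorsal telencephalon, from which the cerebral cortex and the hippocampus develop. The 9 genes are named by symbol, of 41128 genes in the deposited tables, and all 9 were found and passed the filter on low counts. Hprt was chosen by its own levels in these libraries, which earlier results had shown near 0 in 1 genotype, so its values are a description without a test. The other 8 were taken for their place in the pathway, though earlier results of these data were already known. The samples were 3 libraries labelled as knockout for the transcription factor gene Tcf4 (KO), 3 labelled heterozygote (Het) and 3 labelled wild type (WT), all from pups at postnatal day 0 of the strain B6:129SF2/J. The labels give neither the part of Tcf4 that was deleted nor the animals or litters behind each library, so the p-values rest on a spread between libraries that may be technical.

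Purine nucleotides are made by a chain of reactions that builds the ring on phosphoribosyl pyrophosphate (PRPP) and ends at inosine monophosphate (IMP), from which separate branches lead to the adenine and guanine nucleotides. Salvage enzymes reach the same products from free bases, and the brain is known to rely on salvage to a large degree. HPRT1 loss in humans causes Lesch-Nyhan disease, with uric acid overproduction and a movement and behavioural disorder tied to the basal ganglia, whereas mice without Hprt are known to be affected mildly.

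Library totals ran from 22291940 to 29445788 counts. Tcf4 counts did not fall with the label, at 611 to 638 CPM (counts scaled to library size) in KO-labelled, 652 to 822 in Het-labelled and 584 to 728 in WT-labelled libraries. A partial deletion need not lower the count of the whole gene, so this checks nothing, and each direction given here rests on the labelled genotype. KO replicate 3 had 90.6 CPM of Xist, the RNA of the inactive X chromosome of females, while the other 8 libraries had at most 0.105 CPM. All 12 markers of the dorsal telencephalon on the list used were detected, and the lowest of them, Emx2, reached 38.2 CPM. In each comparison with WT 8 of the 12 were called higher and 2 lower, at adjusted p under 0.05 in edgeR's quasi-likelihood test. Over all genes 52.8% were called in KO versus WT and 45.9% in Het versus WT. The WT-labelled libraries stood apart in composition. Processed pseudogenes took 0.0647% to 0.0782% of reads in KO-labelled, 0.0745% to 0.0834% in Het-labelled and 0.225% to 0.276% in WT-labelled libraries. Mitochondrial genes took 0.716% to 0.771%, 0.769% to 0.84% and 1.01% to 1.14% in KO-labelled, Het-labelled and WT-labelled libraries. Striatal neuron markers, of a structure outside the dorsal telencephalon, summed to 346 to 374 CPM in WT-labelled libraries. They summed to 65.4 to 68.5 CPM in KO-labelled and 61.9 to 76.0 CPM in Het-labelled libraries. These differences and the genotype cannot be told apart in any comparison with WT.

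The promoter windows of 4 of the genes are shown because Hprt carried the largest difference and because Atic, Paics and Impdh2 are the ones that hold the letters CACGTG, which factors of the MYC family are known to bind. They are RefSeq sequences of build GRCm38.p6, which has the coordinates of mm10, and run from 250 bases before to 50 after RefSeq's start, which need not be the start in GENCODE M21 used for the gene coordinates. The Hprt window ends before the GENCODE start. In Hprt, on the plus strand of chrX:52987828-52988127, capitals mark GGGCGG, the GC box bound by Sp1 and related factors. In Atic (plus strand, chr1:71556906-71557205), Paics (plus strand, chr5:76951052-76951351) and Impdh2 (plus strand, chr9:108560186-108560485) capitals mark CACGTG.
Hprt: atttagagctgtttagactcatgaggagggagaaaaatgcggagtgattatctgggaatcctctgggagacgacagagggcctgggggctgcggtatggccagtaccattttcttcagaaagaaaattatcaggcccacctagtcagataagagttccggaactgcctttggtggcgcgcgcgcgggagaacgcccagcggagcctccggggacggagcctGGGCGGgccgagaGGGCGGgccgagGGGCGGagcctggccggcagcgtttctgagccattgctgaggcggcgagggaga
Atic: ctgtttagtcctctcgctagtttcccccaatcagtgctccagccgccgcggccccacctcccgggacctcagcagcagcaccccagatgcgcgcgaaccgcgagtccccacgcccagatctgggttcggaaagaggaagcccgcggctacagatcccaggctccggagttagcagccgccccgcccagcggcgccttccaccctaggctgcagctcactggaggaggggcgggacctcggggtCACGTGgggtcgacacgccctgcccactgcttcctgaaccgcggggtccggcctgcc
Paics: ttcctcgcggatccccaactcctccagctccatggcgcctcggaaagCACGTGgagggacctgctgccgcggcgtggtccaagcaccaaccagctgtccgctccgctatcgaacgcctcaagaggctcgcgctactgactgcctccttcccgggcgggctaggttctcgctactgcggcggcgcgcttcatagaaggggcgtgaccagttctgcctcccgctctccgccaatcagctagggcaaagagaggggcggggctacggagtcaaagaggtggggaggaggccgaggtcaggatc
Impdh2: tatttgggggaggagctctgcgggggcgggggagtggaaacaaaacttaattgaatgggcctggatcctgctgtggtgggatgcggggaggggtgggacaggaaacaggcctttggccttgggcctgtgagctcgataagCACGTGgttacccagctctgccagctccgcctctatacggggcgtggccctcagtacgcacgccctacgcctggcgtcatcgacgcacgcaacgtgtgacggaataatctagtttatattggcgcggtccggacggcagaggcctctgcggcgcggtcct
CACGTG, which reads the same on both strands, was found in windows of 3 of the 9 genes and in 7.15% of all 32851 promoter windows in the table. The looser E-box CANNTG, the kind of site that Tcf4 protein binds and which includes CACGTG, was found for 5 of the 9 genes (Atic, Paics, Impdh1, Impdh2 and Adsl) and in 72.3% of all windows. It was not found in the Hprt window. GC boxes (GGGCGG or CCGCCC, which are the 2 strands of 1 motif) were found for all 9 genes and in 35.7% of all windows, with 3 in Hprt. These matches describe the letters of the windows only.

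Hprt was nearly absent from the Het-labelled libraries and close to the WT level in the KO-labelled ones. Hprt (chrX:52988137-53021659, plus strand, mm10) encodes the salvage enzyme that joins hypoxanthine or guanine to PRPP. It had 36.1, 35.1 and 36.6 CPM in KO-labelled libraries, 1.07, 0.71 and 1.66 CPM in Het-labelled and 41.5, 42.9 and 42.6 CPM in WT-labelled libraries. These values rest on 921 to 1102 reads per KO-labelled library, 21, 26 and 48 reads in the Het-labelled libraries and 918 to 990 reads per WT-labelled library. The 3 genotypes did not overlap, and all 3 Het-labelled libraries lay far below every other library.

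**Figure D1:**
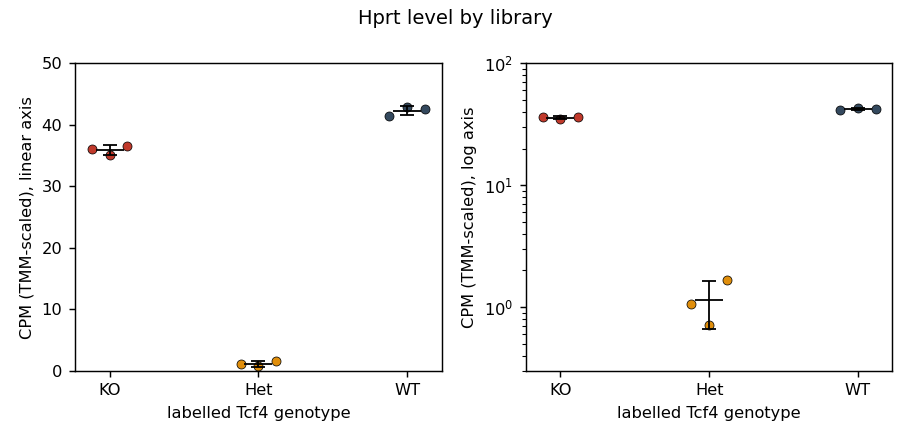
Hprt level in each library, in CPM scaled by TMM factors, on a linear axis (left panel) and a log axis (right panel), by labelled genotype. Points are libraries, bars the mean and SD of 3. The Het-labelled libraries lie at 0.71 to 1.66 CPM, below the KO-labelled (35.1 to 36.6) and WT-labelled libraries (41.5 to 42.9).

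The mean was 35.9 ± 0.78 CPM in KO-labelled, 1.15 ± 0.48 in Het-labelled and 42.3 ± 0.74 in WT-labelled libraries (SD, n = 3 each). The remaining Het level was 1.68% to 3.92% of the WT mean, against 82.9% to 86.5% in the KO-labelled libraries. In the fit of all genes the log2 fold change was -5.20 (SE 0.15) for Het versus WT, 4.96 (SE 0.15) for KO versus Het and -0.24 (SE 0.11) for KO versus WT. By the size of this value Hprt ranked 64 of 15271 tested genes in Het versus WT and 8 in KO versus Het. Hprt was the only tested gene with a log2 fold change of -3 or less in Het versus WT and one within 1 of 0 in KO versus WT, and no gene had the mirror pattern with 3 or more. That pair of limits was set after the values had been seen. Het replicate 3 had the most remaining reads, and without it the Het versus WT value was -5.58. KO replicate 3, the library with Xist, had 36.6 CPM of this X-linked gene, beside 36.1 and 35.1 CPM in the other KO-labelled libraries. The counts are sums over the whole gene, so where in Hprt the remaining reads fall was not analysed here. No 31-base word of Hprt transcripts occurs in transcripts of another gene, in either orientation.

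The nearest tested protein-coding gene on each side of Hprt did not differ detectably between Het and WT. Within 2 Mb of the Hprt start, 83 annotated genes are in the tables, 55 of them with no read in any library, and 18 besides Hprt were tested. In Het versus WT 1 of the 18 was higher and 3 were lower, which is a smaller share than over all genes, where 45.9% were called at adjusted p under 0.05 in edgeR's quasi-likelihood test. In KO versus WT 2 were higher and 4 lower, against 52.8% called over all genes. Some of the 18 had few reads, such as Xlr, with 3 to 13 in a library, and C430049B03Rik, with 10 to 25. Changes in such genes could be missed, which limits these shares. The nearest expressed protein-coding neighbour, Phf6, a chromatin-associated zinc finger gene whose start lies at -75.9 kb from that of Hprt, had 85.8, 87.2 and 93.4 CPM in KO-labelled, 89.0, 85.8 and 74.4 CPM in Het-labelled and 86.9, 75.5 and 77.0 CPM in WT-labelled libraries. Its groups overlapped, with a log2 fold change of 0.06 (adjusted p = 0.53, SE 0.07) for Het versus WT. On the other side Fam122b, 281.7 kb after the Hprt start and at 2.98 to 4.46 CPM, had 0.12 (adjusted p = 0.57, SE 0.16) for Het versus WT. Mospd1, farther out at 382.4 kb, had 0.20 (adjusted p = 0.16, SE 0.11) for Het versus WT.

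Calls among these neighbours ran in several patterns. Gpc4, a glypican of the cell surface, was higher in KO, at 43.4, 42.7 and 40.1 CPM, and in Het, at 29.4, 23.0 and 28.5 CPM, than in WT, at 19.6, 20.9 and 16.3 CPM. Its log2 fold changes were 1.15 (adjusted p = 1.1e-07, SE 0.10) for KO versus WT and 0.51 (adjusted p = 7.3e-04, SE 0.10) for Het versus WT. Hs6st2, a heparan sulfate sulfotransferase, was lower in KO, at 49.9 to 54.2 CPM, than in Het, at 96.2 to 117 CPM, and WT, at 106 to 112 CPM. It had -1.10 (adjusted p = 9.5e-10, SE 0.07) for KO versus WT and -0.06 (adjusted p = 0.47, SE 0.07) for Het versus WT. Rtl8c, a gene derived from a retrotransposon, was lower in Het than in both other genotypes, as Hprt was, but by less. It had 57.4, 52.4 and 48.6 CPM in KO-labelled, 36.2, 43.0 and 39.0 CPM in Het-labelled and 51.6, 57.7 and 60.1 CPM in WT-labelled libraries. Its log2 fold change was -0.52 (adjusted p = 8.6e-05, SE 0.08) for Het versus WT, 0.42 (adjusted p = 0.0019, SE 0.08) for KO versus Het and -0.10 (adjusted p = 0.33, SE 0.08) for KO versus WT. Rtl8c shares 9.70% of its 31-base words with other genes. The pseudogene Gm14584, 430.2 kb after the Hprt start, was at 0.50 to 1.12 CPM in KO-labelled, 0.97 to 1.19 in Het-labelled and 4.35 to 4.88 in WT-labelled libraries, low in both genotypes, and shares 81.6% of its words with other genes. The pseudogene Rps2-ps13, at -89.5 kb, had 299 and 334 CPM in WT replicates 1 and 3 and 0.31 CPM in WT replicate 2, against at most 0.38 CPM in the other 6 libraries. It shares 94.5% of its words with other genes, so its reads cannot be assigned to this place with certainty.

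**Figure D2:**
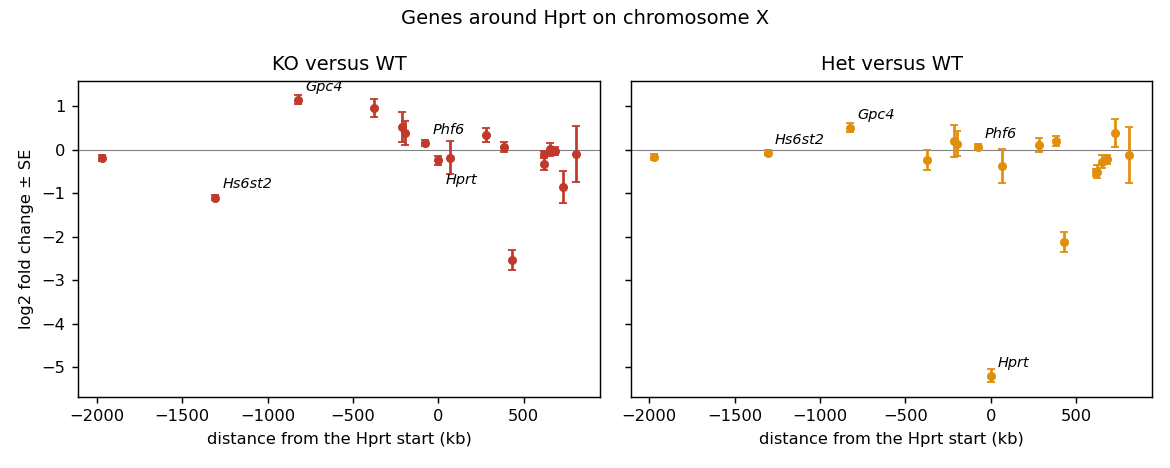
Log2 fold change (± SE) of Hprt and the tested genes within 2 Mb of it against the distance of their starts from the Hprt start in kb, for KO versus WT (left panel) and Het versus WT (right panel). Rps2-ps13 is not drawn. Hprt is at -5.20 in Het versus WT, while Phf6 next to it is at 0.06.

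Set per gene length, the enzymes spanned a wide range in the tissue. The deposited FPKM values (reads scaled by gene length and library size) put Paics on top in WT-labelled libraries at 99.1 ± 3.4 FPKM (SD, n = 3), followed by Impdh1 at 60.7 ± 3.6, Aprt at 57.2 ± 5.7, Impdh2 at 46.9 ± 1.7, Atic at 37.0 ± 1.4, Hprt at 32.1 ± 0.17, Adsl at 27.3 ± 2.7, Gart at 19.1 ± 0.58 and Ppat at 6.66 ± 0.33. Impdh1 and Aprt, neighbours in that order, lay within their spread of each other. Paics, which encodes the bifunctional enzyme of the middle of the pathway, and Ppat, which encodes the enzyme of the first committed step, thus stood at opposite ends. In KO-labelled libraries the levels were 112 ± 4.5 FPKM for Paics and 6.66 ± 0.23 FPKM for Ppat, and in Het-labelled libraries 101 ± 6.7 and 6.81 ± 0.69 FPKM. In the Het-labelled libraries Hprt, at 0.90 ± 0.39 FPKM, was the lowest of the 9. In those libraries Aprt at 75.2 ± 1.9 FPKM stood above Impdh2 at 50.2 ± 1.4 FPKM and Impdh1 at 47.0 ± 5.5 FPKM, the last 2 within their spread.

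**Figure D3:**
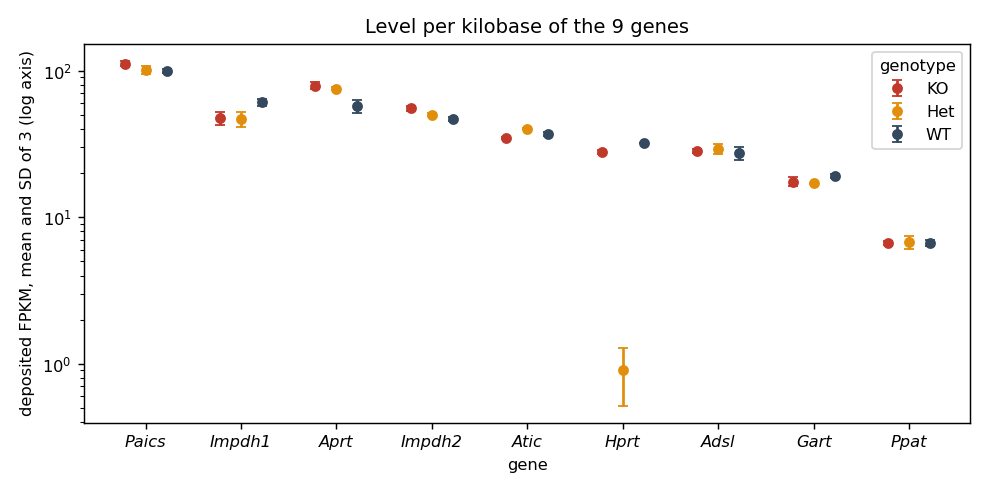
Deposited FPKM of the 9 genes (log axis), mean and SD of 3 libraries per labelled genotype, in the order of the WT mean. Ppat lies near 6.66 FPKM and Paics near 99.1 in WT, and Hprt in Het, at 0.90, is the one value far off its other genotypes.

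Of the 8 enzymes other than Hprt, 5 were called in KO versus WT, 2 higher and 3 lower. Over all tested genes 52.8% were called in that comparison, 26.5% higher and 26.3% lower. In Het versus WT 3 of the 8 were called, 1 higher and 2 lower, against 45.9% of all genes, 22.5% higher and 23.4% lower. In KO versus Het 1 was called, lower, against 16.7% of all genes, 8.3% higher and 8.44% lower. The groups did not overlap for 6 of the 8 in KO versus WT (62.7% of all genes), 3 in Het versus WT (53.6%) and 3 in KO versus Het (33.4%). The median log2 fold change of the 8 was -0.01 in KO versus WT, 0.01 in Het versus WT and 0.05 in KO versus Het, beside 0.01, 0.01 and 0.00 over all tested genes. None of the 8 reached a 1.5-fold change in any of the 3 comparisons. KO versus WT and Het versus WT share the WT-labelled libraries. The KO versus WT count was 3 without KO replicate 1, KO replicate 2, Het replicate 2 or WT replicate 2 and 4 without KO replicate 3 or WT replicate 3, and its split was 3 higher and 1 lower with upper-quartile factors, without a count filter and with limma on log2(FPKM + 1) or log2(FPKM + 0.1). With limma the Het versus WT split was 1 higher and 1 lower.

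**Figure D4:**
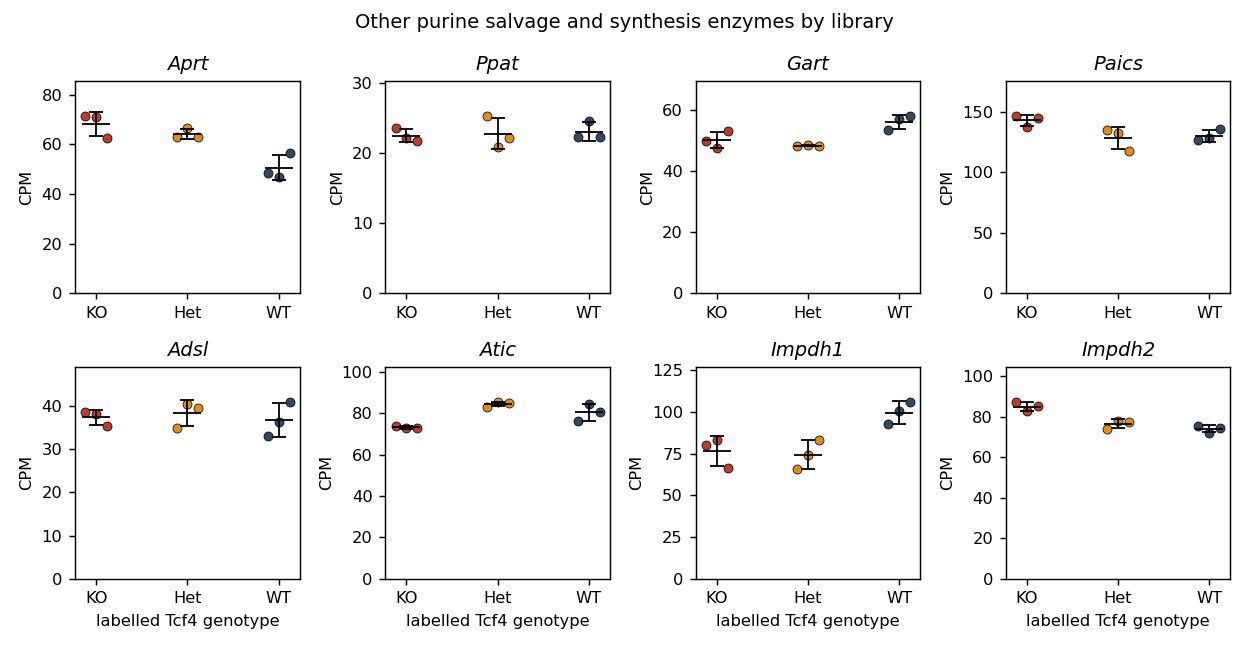
CPM in each library for the 8 enzymes other than Hprt, by labelled genotype, with axes from 0. Points are libraries, bars the mean and SD of 3. Aprt lies at 62.6 to 71.3 CPM in KO and 62.9 to 66.7 in Het, above WT at 47.0 to 56.3, and Impdh1 lies below WT in both.

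Aprt, the other purine salvage phosphoribosyltransferase, was higher in both KO and Het than in WT. It turns adenine into adenosine monophosphate and lies at chr8:122574635-122576909 (minus strand). It had 71.3, 70.9 and 62.6 CPM in KO-labelled, 62.9, 66.7 and 63.2 CPM in Het-labelled and 48.4, 47.0 and 56.3 CPM in WT-labelled libraries. All 6 KO-labelled and Het-labelled libraries lay above the 3 WT-labelled ones. The log2 fold change was 0.43 (adjusted p = 1.3e-04, SE 0.08) for KO versus WT and 0.35 (adjusted p = 0.0013, SE 0.08) for Het versus WT, and each passed the threshold in all 18 alternatives run. KO and Het overlapped, with a difference of 0.09 (adjusted p = 0.48, SE 0.07). The part of the Hprt level in the Aprt result was not tested. In tissue of mixed cells, more cells that use a gene and more RNA per cell cannot be told apart. Markers of proliferating cells were higher in the same libraries, 14 of 15 in each comparison with WT, with summed levels of 522 to 557 CPM in KO-labelled, 436 to 449 in Het-labelled and 310 to 317 in WT-labelled libraries and no marker at 0, and their part in the Aprt result was not tested.

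Ppat and Adsl, of the ring pathway, did not differ detectably between genotypes. Ppat (chr5:76913249-76951578, minus strand), which commits PRPP to the pathway, had 23.6, 22.2 and 21.8 CPM in KO-labelled, 25.3, 20.9 and 22.2 CPM in Het-labelled and 22.3, 24.7 and 22.4 CPM in WT-labelled libraries. The 3 groups overlapped, and the log2 fold change was -0.04 (adjusted p = 0.74, SE 0.08) for KO versus WT and -0.02 (adjusted p = 0.85, SE 0.08) for Het versus WT. Adsl (chr15:80948490-80970946, plus strand), which acts both in the ring pathway and in the branch to adenine nucleotides, had 38.6, 38.2 and 35.5 CPM in KO-labelled, 35.0, 40.5 and 39.7 CPM in Het-labelled and 33.1, 36.4 and 41.0 CPM in WT-labelled libraries. It overlapped between all groups too, at 0.02 (adjusted p = 0.84, SE 0.09) and 0.06 (adjusted p = 0.59, SE 0.09).

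Paics and Ppat start 271 bases apart on opposite strands, and their transcripts share 272 exonic bases there. The labels do not say whether counting used strand, and without it reads from those bases cannot be told apart. Paics (chr5:76951307-76967509, plus strand) had 146, 138 and 145 CPM in KO-labelled, 135, 132 and 118 CPM in Het-labelled and 127, 128 and 136 CPM in WT-labelled libraries. The KO-labelled libraries were all above the rest. Its log2 fold change was 0.13 (adjusted p = 0.057, SE 0.06) for KO versus WT, which missed the threshold, and -0.02 (adjusted p = 0.78, SE 0.06) for Het versus WT. For KO versus Het it was 0.16 (adjusted p = 0.070, SE 0.06), which also missed. The KO versus WT value passed in 8 of 18 alternatives, with adjusted p from 0.020 to 0.16. Across the shared start region, Paics in KO versus WT thus stood at 0.13 and Ppat at -0.04.

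Gart (chr16:91621186-91646952, minus strand), which encodes a trifunctional enzyme of the ring pathway, was slightly lower in Het than in WT. It had 49.7, 47.6 and 52.9 CPM in KO-labelled, 48.2, 48.4 and 48.0 CPM in Het-labelled and 53.5, 57.0 and 57.8 CPM in WT-labelled libraries, with the WT-labelled ones on top. The log2 fold change was -0.22 (adjusted p = 0.0099, SE 0.06) for Het versus WT, called in 16 of 18 alternatives with limma on FPKM just missing it at adjusted p = 0.052. For KO versus WT it was -0.16 (adjusted p = 0.039, SE 0.06), a call that was lost without KO replicate 1 or 2, Het replicate 2, or WT replicate 2 or 3 and held in 8 of 18 alternatives, with adjusted p from 0.021 to 0.17. Gart shares 17.2% of its words with Gm15964, an antisense transcript that had at most 0.28 CPM in any library. Son, an RNA-binding protein gene that starts 554 bases away on the other strand, had 0.12 (KO versus WT, adjusted p = 0.066, SE 0.05) and 0.05 (Het versus WT, adjusted p = 0.48, SE 0.05).

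Atic (chr1:71557150-71579631, plus strand), which encodes the enzyme of the last steps to IMP, was the 1 enzyme of the 8 called in KO versus Het. The KO and Het groups of Paics and Impdh2 did not overlap either, but both genes missed the threshold. Atic had 74.1, 72.7 and 73.1 CPM in KO-labelled, 83.3, 85.5 and 84.8 CPM in Het-labelled and 76.5, 84.6 and 80.6 CPM in WT-labelled libraries. The KO-labelled libraries lay below all others, and Het and WT overlapped. The log2 fold change was -0.21 (adjusted p = 0.012, SE 0.05) for KO versus Het, held in 17 of 18 alternatives and lost without KO replicate 2 (adjusted p = 0.060). It was -0.14 (adjusted p = 0.038, SE 0.05) for KO versus WT and 0.07 (adjusted p = 0.30, SE 0.05) for Het versus WT. The KO versus WT call held in only 7 of 18 alternatives, with adjusted p from 0.016 to 0.19. Among the losses were the fits without any 1 KO-labelled library, Het replicate 2, or WT replicate 2 or 3.

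The paired genes of IMP dehydrogenase, which opens the branch from IMP to the guanine nucleotides, moved in opposite directions in KO. Impdh1 (chr6:29200434-29216364, minus strand) had 79.9, 83.1 and 66.4 CPM in KO-labelled, 66.0, 74.4 and 83.0 CPM in Het-labelled and 92.4, 101 and 106 CPM in WT-labelled libraries. Every KO-labelled and Het-labelled library was below the WT range. Its log2 fold change was -0.38 (adjusted p = 0.0062, SE 0.10) for KO versus WT and -0.42 (adjusted p = 0.0045, SE 0.10) for Het versus WT, past the threshold in all 18 alternatives each, with no difference detected between KO and Het (0.04, adjusted p = 0.85, SE 0.10).

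Impdh2 (chr9:108560286-108565584, plus strand), known as the isoform of dividing cells, had 87.2, 82.5 and 85.2 CPM in KO-labelled, 73.8, 77.8 and 77.5 CPM in Het-labelled and 75.6, 72.1 and 74.4 CPM in WT-labelled libraries. The KO-labelled libraries were on top and Het and WT overlapped. It had 0.20 (adjusted p = 0.0038, SE 0.05) for KO versus WT, past the threshold in all 18 alternatives, 0.05 (adjusted p = 0.50, SE 0.05) for Het versus WT and 0.15 (adjusted p = 0.0501, SE 0.05) for KO versus Het. The Impdh2 value is uncertain because 43.7% of its words occur in other genes, nearly all in the copy Impdh2-ps, which had 11.2 to 12.8 CPM in KO-labelled, 9.72 to 11.1 in Het-labelled and 9.89 to 12.1 in WT-labelled libraries. Proliferation markers were highest in the KO-labelled libraries as well, and their part in the Impdh2 result was not tested.

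The rest of purine metabolism was read from lists of 38 genes found in the tables, of which 32 were tested. Purine nucleoside phosphorylase (Pnp) had no matching identifier and was not analysed here. In KO versus WT 5 of the 32 were higher and 10 lower, and in Het versus WT 2 were higher and 10 lower, or 46.9% and 37.5% called, beside 52.8% and 45.9% of all genes. The median log2 fold change was -0.11 and -0.10, beside 0.01 and 0.01 over all genes. In KO versus Het 4 were higher and none lower in the main fit, or 12.5% called, beside 16.7% of all genes. In that comparison 1 was lower with upper-quartile factors, without a count filter and with limma. The 4 calls in KO versus Het became 1 without KO replicate 1 or KO replicate 2 and 2 without Het replicate 2. With limma on either FPKM scale 7 of the 16 calls in KO versus WT and 4 of the 13 in Het versus WT were on the higher side.

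**Figure D5:**
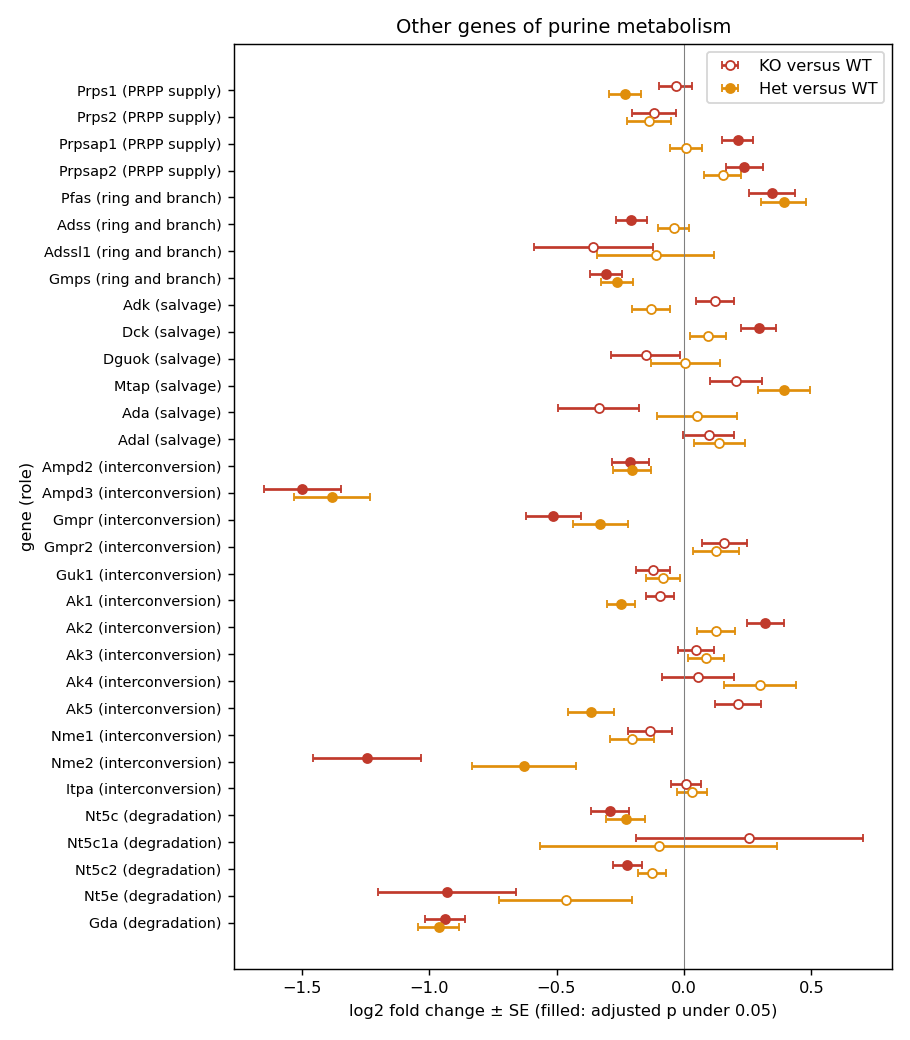
Log2 fold change (± SE) of the 32 tested genes of purine metabolism other than the 9 enzymes, with the role of each in brackets, for KO versus WT and Het versus WT. Filled points passed adjusted p under 0.05. Ampd3 lies farthest from 0 (-1.50 and -1.38), and Gda lies at -0.94 and -0.96.

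Among the 4 further genes of ring synthesis and its branches, Pfas and Gmps differed in both genotypes. Pfas, which encodes a glutamine-using enzyme of the ring pathway, had 35.7, 36.8 and 36.0 CPM in KO-labelled, 42.5, 33.4 and 36.1 CPM in Het-labelled and 30.5, 29.0 and 25.8 CPM in WT-labelled libraries. All KO-labelled and Het-labelled libraries lay above WT, with log2 fold changes of 0.35 (adjusted p = 0.0034, SE 0.09) and 0.39 (adjusted p = 0.0018, SE 0.09). Gmps, the guanine monophosphate synthetase gene one step after Impdh1 and Impdh2, had 90.1, 91.5 and 91.7 CPM in KO-labelled, 102, 96.1 and 84.6 CPM in Het-labelled and 120, 109 and 109.5 CPM in WT-labelled libraries. It was below the WT range in every KO-labelled and Het-labelled library, at -0.31 (adjusted p = 5.9e-04, SE 0.06) and -0.26 (adjusted p = 0.0028, SE 0.06). Adss, of the adenine branch, was lower in KO (-0.21, adjusted p = 0.0085, SE 0.06), while Het versus WT gave -0.04 (adjusted p = 0.62, SE 0.06).

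Prps1, an X-linked PRPP synthetase gene, was lower in Het than in WT. It had 78.9, 73.1 and 73.0 CPM in KO-labelled, 68.4, 68.1 and 59.7 CPM in Het-labelled and 77.5, 74.1 and 78.7 CPM in WT-labelled libraries, with every Het-labelled library below the rest. The log2 fold change was -0.23 (adjusted p = 0.0065, SE 0.06) for Het versus WT and -0.03 (adjusted p = 0.68, SE 0.06) for KO versus WT. For KO versus Het it was 0.20 (adjusted p = 0.039, SE 0.06), which held in 8 of 18 alternatives, with adjusted p from 0.018 to 0.19, and was lost without KO replicate 1, 2 or 3, Het replicate 2 or 3, or WT replicate 1. Of the other 3 tested genes of PRPP supply, Prpsap1, of the proteins associated with that synthetase, was higher in KO versus WT (0.21, adjusted p = 0.0073, SE 0.06). Prps1 shares 18.5% of its words with the copy Prps1l3. Prpsap2 was also called higher in KO (0.24, adjusted p = 0.010), a call lost without WT replicate 1, and shares 40.9% of its words. Among 6 further salvage genes, Dck, the deoxycytidine kinase gene whose product also takes purine deoxynucleosides, was higher in KO versus WT (0.29, adjusted p = 0.0019, SE 0.07). Mtap, which recovers adenine from methylthioadenosine, was higher in Het versus WT (0.39, adjusted p = 0.0047, SE 0.10). Mtap makes the substrate of Aprt, and its KO versus WT value was 0.21 (adjusted p = 0.10, SE 0.10).

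Interconversion and degradation held the largest differences of the purine lists. Ampd3, an AMP deaminase gene known from red blood cells, had 4.46, 4.30 and 6.08 CPM in KO-labelled, 4.55, 5.82 and 5.71 CPM in Het-labelled and 15.7, 13.0 and 13.3 CPM in WT-labelled libraries. It was 2.82-fold lower in KO versus WT (log2 fold change -1.50, adjusted p = 3.5e-07, SE 0.15) and 2.61-fold lower in Het versus WT (-1.38, adjusted p = 1.4e-06, SE 0.15). Summed erythroid markers overlapped between genotypes, at 292 to 368 CPM in KO-labelled, 210 to 307 in Het-labelled and 190 to 363 in WT-labelled libraries. Of 6 tested erythroid markers 1 was called higher in KO versus WT, and 1 higher and 2 lower in Het versus WT. Over all genes 52.8% and 45.9% were called in these comparisons. The part of red blood cells in the Ampd3 result was not tested.

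Gda, the guanine deaminase of neurons that competes with Hprt for guanine, had 60.4, 59.8 and 55.7 CPM in KO-labelled, 51.2, 62.8 and 58.8 CPM in Het-labelled and 123, 101 and 112 CPM in WT-labelled libraries. It was 1.92-fold lower in KO and 1.95-fold lower in Het, with log2 fold changes of -0.94 (adjusted p = 1.6e-07, SE 0.08) for KO versus WT, -0.96 (adjusted p = 2.3e-07, SE 0.08) for Het versus WT and 0.02 (adjusted p = 0.89, SE 0.08) for KO versus Het. Markers of neurons of the striatum, a structure outside the dorsal telencephalon, fell in the same libraries, 9 of 10 in KO and 10 of 10 in Het, with summed levels of 65.4 to 68.5, 61.9 to 76.0 and 346 to 374 CPM in KO-labelled, Het-labelled and WT-labelled libraries and no marker at 0. Their part in the Gda result was not tested. In degradation 4 of 5 tested genes were lower in KO and 2 of 5 in Het, against 26.3% and 23.4% of all genes called lower, and none was called higher in edgeR. Xdh and Uox, which encode the enzymes that make and break down uric acid, were at most at 7 and 3 reads in any library and were not tested.

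Ak5, a neuronal adenylate kinase gene, separated Het from both other genotypes in the same direction as Hprt, though less. It had 40.0, 38.4 and 39.9 CPM in KO-labelled, 24.1, 28.8 and 26.3 CPM in Het-labelled and 39.0, 31.3 and 31.8 CPM in WT-labelled libraries, with every Het-labelled library below the rest. The log2 fold change was 0.58 (adjusted p = 2.5e-04, SE 0.09) for KO versus Het, -0.36 (adjusted p = 0.0033, SE 0.09) for Het versus WT and 0.21 (adjusted p = 0.053, SE 0.09) for KO versus WT. Nme2 was called lower in KO (-1.24, adjusted p = 1.1e-04, SE 0.21) but shares 47.9% of its words with other genes, so its value is uncertain.

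Folate enzymes, which supply the formyl groups that Gart and Atic use, held a gene that set Het apart in the other direction. Mthfd2, a mitochondrial folate enzyme gene, had 7.77, 7.81 and 11.1 CPM in KO-labelled, 34.4, 24.3 and 34.0 CPM in Het-labelled and 12.5, 14.8 and 14.8 CPM in WT-labelled libraries. The 3 genotypes did not overlap, with Het highest and KO lowest. The log2 fold change was 1.14 (adjusted p = 2.1e-04, SE 0.16) for Het versus WT, -0.65 (adjusted p = 0.0082, SE 0.17) for KO versus WT and -1.79 (adjusted p = 4.1e-05, SE 0.17) for KO versus Het, and all of these calls held in every alternative run. Atf4, a stress-response transcription factor known to act on Mthfd2, had 78.7, 85.9 and 144 CPM in KO-labelled, 179, 117 and 119 CPM in Het-labelled and 72.9, 72.3 and 75.4 CPM in WT-labelled libraries. KO replicate 3 and Het replicate 1 stood above their groups. Its Het versus WT call (0.91, adjusted p = 0.040, SE 0.28) was lost without any 1 Het-labelled or WT-labelled library or KO replicate 2, with adjusted p from 0.052 to 0.10 in those fits. The call was also lost without a count filter (adjusted p = 0.053) and with the replicate block (adjusted p = 0.082), and held in 9 of 18 alternatives.

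Of 15 tested genes of the folate and serine list, 6 were higher and 5 lower in KO versus WT and 7 higher and 2 lower in Het versus WT, with medians of 0.15 and 0.21. Over all genes 26.5% were higher and 26.3% lower in KO versus WT, and 22.5% higher and 23.4% lower in Het versus WT. Aldh1l1, a cytosolic folate enzyme gene and astrocyte marker, was lowest of the list in both, at -1.14 (adjusted p = 1.3e-07, SE 0.09) and -1.01 (adjusted p = 7.4e-07, SE 0.09). Astrocyte markers fell beside it, 6 of 7 tested in each comparison, with summed levels of 529 to 602 CPM in KO-labelled, 592 to 638 in Het-labelled and 1094 to 1147 in WT-labelled libraries and no marker at 0, and their part was not tested. Its mitochondrial relative Aldh1l2 was higher, at 0.35 (adjusted p = 2.1e-04, SE 0.06) in KO and 0.33 (adjusted p = 5.8e-04, SE 0.06) in Het. Aldh1l1 and Aldh1l2 share 11.4% and 14.7% of their words with other genes.

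Nucleoside transporters moved both ways. Slc29a1, an equilibrative transporter of purine and pyrimidine nucleosides, was higher in KO (0.37, adjusted p = 1.9e-04, SE 0.07) and Het (0.35, adjusted p = 4.5e-04, SE 0.07) than in WT, and Slc29a4, a monoamine and adenosine transporter, was lower in KO (-0.40, adjusted p = 2.1e-05, SE 0.06) and Het (-0.25, adjusted p = 0.0023, SE 0.06). The other 3 tested genes of the list were not called in either comparison.

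Most genes of deoxynucleotide supply were higher in KO and Het than in WT. Of 6 tested genes of deoxynucleotide supply, 4 were higher and 1 lower in KO versus WT, with a median of 0.23, and 4 higher and none lower in Het versus WT, with a median of 0.21. These are 83.3% and 66.7% called, beside 52.8% and 45.9% of all genes. Rrm2, the ribonucleotide reductase subunit of dividing cells and also on the list of proliferation markers, had 53.0, 51.8 and 51.1 CPM in KO-labelled, 43.3, 41.1 and 37.0 CPM in Het-labelled and 23.4, 26.1 and 25.9 CPM in WT-labelled libraries. Its log2 fold change was 1.05 (adjusted p = 7.7e-09, SE 0.08) in KO versus WT, and Tk1, the thymidine kinase of dividing cells, had 1.11 (adjusted p = 6.1e-06, SE 0.14). Among 11 pyrimidine genes 2 were higher and 2 lower in KO versus WT and 2 higher and 1 lower in Het versus WT, with medians of 0.04 and 0.03, or 36.4% and 27.3% called, below the shares of all genes. The part of the proliferation markers in these differences was not tested.

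Mycn, a transcription factor gene of the MYC family known from cortical progenitors, had 187, 189 and 192 CPM in KO-labelled, 162.5, 132 and 138 CPM in Het-labelled and 88.0, 103 and 91.3 CPM in WT-labelled libraries. The 3 genotypes did not overlap, with log2 fold changes of 1.01 (adjusted p = 3.0e-08, SE 0.07) for KO versus WT, 0.61 (adjusted p = 9.1e-06, SE 0.07) for Het versus WT and 0.40 (adjusted p = 0.0016, SE 0.07) for KO versus Het. The genes whose windows hold CACGTG stood at 0.13 (Paics), 0.20 (Impdh2) and -0.14 (Atic) in KO versus WT and at -0.02, 0.05 and 0.07 in Het versus WT. Myc, by contrast, had -0.11 (adjusted p = 0.31, SE 0.10) in KO versus WT and -0.30 (adjusted p = 0.010) in Het versus WT, a call lost without Het replicate 2 or WT replicate 2.

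None of the 11952 genes searched lay close to Hprt in profile. Likeness was measured as the root mean square difference of log2 CPM, each gene centred on its own mean over the 9 libraries. The search left out genes with a mean log2 CPM under 1 and those without a symbol or named by model number (Gm or Rik). The measure is not scaled for the size of a gene's differences, so a gene with a large difference, such as Hprt, lies far from most others. Among the nearest to Hprt were Htr1b, a serotonin receptor gene, at 1.61, Cplx3, a complexin gene, at 1.62, Dgkk, a diacylglycerol kinase gene, at 1.67, and Atp10d, a phospholipid transporter gene, at 1.70. For the other 8 enzymes the nearest gene lay at 0.026 to 0.066, among them Zbtb5 for Paics, Hexim1 for Impdh2, Cirbp for Ppat, Fcf1 for Aprt and Fbll1 for Impdh1. None of these nearest genes was another of the 9 enzymes, and Prpsap1 was the fifth nearest to Impdh2, at 0.037.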

How the data were processed

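RNA of the dorsal telencephalon, extracted with an RNeasy Plus kit and made into libraries with an NEBNext Ultra kit per the labels, was measured in 9 libraries, 3 per genotype. The authors deposited raw read counts and FPKM values per gene. Per gene, the deposited FPKM values are its counts over a length and the library total (largest log2 deviation 1.8e-14) and are not a second measurement. Build mm10 is named per the submitters' processing notes, which list as tools, with no role, DESeq 1.10.1, HTSeq 0.6.1, TopHat2 2.0.9 and Bowtie2 2.0.6. Strand and the treatment of reads with several matches are not given in the sources used here.

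Of 41128 genes 40254 had a symbol in GENCODE M21. Counts were analysed with edgeR 4.0.16 in R 4.3.3: filterByExpr (minimum count 10, total 15) left 15271 genes, scaled by TMM factors. The quasi-likelihood test was fitted with robust dispersion on all 9 libraries, leaving 6 residual degrees of freedom, and p-values were adjusted by Benjamini-Hochberg over all tested genes, with a threshold of 0.05. Unless another tool is named, adjusted p-values are edgeR's. SE is the size of the log2 fold change divided by the square root of F. Log2 CPM used a prior count of 2. Replicates of 1 genotype differed beyond counting noise. The procedure was also run on simulated counts in which few genes changed. That run cannot check the scaling or the error rate where many genes differ, as here. Alternatives used DESeq2 1.42.0 and limma 3.58.1, other factors and filters, a replicate block and each library left out. The alternatives for named genes other than the 9 enzymes were added after seeing the data. Python 3.11.15 with matplotlib 3.10.9 drew the figures.

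The enzymes and gene lists were chosen with earlier results of these data known. Named genes were the 9 enzymes, up to 3 called genes per list and comparison with WT by adjusted p, tested genes within 2 Mb of the Hprt start, genes that start within 1 kb of an enzyme's start or overlap it on the other strand, and the nearest profiles, of which 1 is not reported here. Which of these to print, values of a named gene in comparisons whose rule did not take it, and Xdh, Uox, Impdh2-ps and Tcf4 were chosen after values were seen. Words of 31 bases shared with other genes mark reads that could be split between copies.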

Additional observations from a re-analysis of the deposited data

How the results depend on the processing

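Most results kept their direction and side of the threshold, but the KO versus WT calls of Gart and Atic held in only 8 and 7 of 18 alternatives. Requiring a 1.5-fold change left 0 of the 8 enzymes other than Hprt in each comparison, 4, 3 and 0 of the other purine genes in KO versus WT, Het versus WT and KO versus Het, and 3420, 2518 and 735 of all genes, by construction. Correlations of deviations between same-numbered libraries ran from -0.106 to 0.084. Differently numbered libraries were not compared and the labels name no pairs, so whether the libraries are paired cannot be decided. With the replicate block the enzymes called in KO versus WT numbered 3 and the other purine genes called in KO versus Het 2, and the cause was not tested. With limma on log2(FPKM + 1) the Hprt value was -4.14 in Het versus WT and 3.95 in KO versus Het, with a pseudocount above the mean Het level. Leaving out 1 library at a time gave Hprt values of -5.58 to -4.92 and 4.68 to 5.35 in these comparisons, 3 to 6 enzymes in KO versus WT, 0 to 2 in KO versus Het (0 without KO replicate 2 and 2 without Het replicate 1), 1 to 5 other purine genes in KO versus Het, and 1432 to 2561 of all genes in KO versus Het (1467 and 1432 without KO replicates 1 and 2). Depth limits the Hprt level in Het, which rests on 21 to 48 reads a library.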
